A study of Mus musculus with 82 samples.

Results

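Lhx1, Six3, Six6, Zfhx3 and Vax1 are homeobox transcription factors known from mouse genetics for building the suprachiasmatic nucleus (SCN), the small paired nucleus above the optic chiasm that keeps daily time. They were chosen by symbol, as 5 of the 27515 genes in the count table, and their RNA was followed through 82 pieces of adult SCN tissue. The tissue came from C57BL/6 mice aged 8 weeks, all of one strain and age, with no treatment among the labels, which give no sex and no time of day either. Hexagons of at most 40 µm radius were cut by laser from sections stained with cresyl violet, following a regular grid. From each hexagon 1 library was made by Smart-seq2, which copies whole transcripts from minute amounts of RNA. Each hexagon has a coordinate on the medial-lateral axis, the dorsal-ventral axis and the anterior-posterior axis, and the labels state neither the unit nor the direction in which it counts. There are 9 sections, named here by their anterior-posterior coordinate, which goes from 47 up to 431 by 48 at a time. Sections 47 to 431 hold 4, 6, 12, 14, 12, 14, 13, 6 and 1 hexagons. A hexagon holds several cells, so its value is an average over neurons and glia, and the grid, not a marker gene, decided what was cut.

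All 5 proteins bind DNA through a homeodomain. Six3 and Six6 belong to the sine oculis homeobox family and act early, in the ventral forebrain and the eye field. In mice, loss of Six3 from the early forebrain leaves no recognisable SCN, and loss of Six6 disturbs the optic nerve and the nucleus. Vax1 shapes the ventral midline where the optic nerves cross. Lhx1, a LIM-homeodomain factor, acts later in the maturing SCN neurons and is needed for their normal peptide expression and synchrony. Zfhx3, a very large protein with many zinc fingers and several homeodomains, stays high in adult SCN neurons, where a mutation of it shortens the circadian period.

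Libraries held 11905 to 2843366 counts, with a median of 542267.5, and 2549 to 13419 detected genes. The 5 libraries below the median divided by 3 were kept. The 82 libraries carried the marks of SCN tissue in that the 9 pan-neuronal markers summed to a median of 6344 CPM, that is counts scaled for library size, and the 3 GABAergic markers to 1804 CPM, while the 3 glutamatergic markers had a median of 0 CPM. Avp had a count in 80 of the 82 hexagons, Nms in 81, Prok2 in 77 and Vip in 62, while 19 markers of other hypothalamic regions summed to a median of 7.91 CPM. Single hexagons departed from these medians. The pan-neuronal sum went down to 1345 CPM, the glutamatergic sum up to 230 CPM and that of the other regions up to 1029 CPM. Glial RNA was present, with medians of 5121 CPM over 10 astrocyte markers and 1349 CPM over 10 oligodendrocyte markers. The labels name no animal. Some hexagons share an animal if there were fewer animals than hexagons, and then every p-value over hexagons given below is too small and measures the spread between hexagons alone.

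The 5 genes lie on 5 chromosomes (GENCODE M21 on GRCm38). Lhx1 (ENSMUSG00000018698.15) spans chr11:84518284-84525535 on the minus strand. Six3 (ENSMUSG00000038805.10) spans chr17:85613608-85629302 on the plus strand, and Six6 (ENSMUSG00000021099.6) spans chr12:72939892-72944899 on the plus strand. Zfhx3 (ENSMUSG00000038872.10) is by far the longest of the 5, with a span of 1018987 bases at chr8:107942644-108961630 on the plus strand. Vax1 (ENSMUSG00000006270.7) spans chr19:59166187-59170056 on the minus strand, and its counted length of 1117 bases is the shortest. Exons of Six3 overlap 2 annotated genes on the other strand, with 106 bases shared with Six3os1 and 168 with Gm28528. Exons of Six6 share 192 bases with 4930447C04Rik, also on the other strand. The strand setting of the counting is not given in the sources used here, so reads in these stretches cannot be assigned with certainty. Exons of Lhx1, Zfhx3 and Vax1 overlap no other annotated gene.

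The regions before the start sites of 4 of the 5 genes share a short string, TGATTGG, which contains ATTGG, the reverse complement of the CCAAT box. The windows below show it with its neighbours, to let the start regions be compared by eye. Whether the string goes with the correlations of the 5 genes across hexagons, given further on, was not tested. The highest was between Lhx1 and Zfhx3, which has no such string there. The next was between Six3 and Six6, which share a longer string named below. The lowest were those of Vax1, which has the string at 2 places, and its low counts limit any correlation. Capitals mark TGATTGG, and each window is 30 bases from RefSeq (GRCm38.p6), written 5′ to 3′ on the strand given. Distances are to the RefSeq start, at 84525534 for Lhx1, 85620834 for Six3, 72939882 for Six6 and 59170397 for Vax1. The RefSeq starts of Six3 and Zfhx3 lie inside the wider GENCODE spans given above, and those of Six6 and Vax1 lie before their GENCODE spans.

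Six3, chr17:85620671-85620700, plus strand, string 152 bases before the start: gttctcagtatTGATTGGcagggctgacag

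Six3, chr17:85620690-85620719, plus strand, 133 bases before the start: agggctgacagTGATTGGcagtggttgccg

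Six6, chr12:72939801-72939830, plus strand, 70 bases before the start: agtcgcagcctTGATTGGcagagcagccta

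Lhx1, chr11:84525586-84525615, minus strand, 70 bases before the start: ccgcgaggcgcTGATTGGtcacagactgcc

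Vax1, chr19:59170530-59170559, minus strand, 151 bases before the start: aaacccctactTGATTGGggacaaggacag

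Vax1, chr19:59170569-59170598, plus strand, opposite to the gene, 189 bases before the start: ataaacggaaaTGATTGGtcttgctttcgg

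The longer string TGATTGGCAG stood in both Six3 windows and in the Six6 window. Searched on both strands over the 250 bases before the start, TGATTGG occurred in 7.65% of 27025 RefSeq start regions, TGATTGGCAG in 0.196% and CCAAT in 34.5%. TAATTA, the core letters many homeodomains bind, occurred in 4.90% of the start regions and in none of the 5. The strings TGATTGG and TGATTGGCAG were chosen after these sequences had been read, so their frequency among the 5 genes is a description, and a match is no evidence of binding. Each TGATTGG match is also a CCAAT match, and each TGATTGGCAG match a TGATTGG match. The E-box CACGTG (6.05% of start regions), the cAMP response element (1.62%) and the TATA box (12.97%) were also searched and stood in none of the 5. Zfhx3 had no TGATTGG in this window.

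Levels were compared between the genes as RPKM, which divides by the gene's length. Six6 was the highest of the 5 per length, at 31.9 ± 19.2 RPKM (SD, n = 82 hexagons). Six3 followed at 13.4 ± 6.96 RPKM, Lhx1 at 12.99 ± 12.6 RPKM and Zfhx3 at 10.3 ± 4.42 RPKM. Vax1 was the lowest, at 4.78 ± 5.45 RPKM. For comparison, the median gene with any count averaged 2.05 RPKM. The neighbours Six3, Lhx1 and Zfhx3 in this order differ by less than 1 SD. Within single hexagons the order was less even, since Six6 was the highest of the 5 per length in 64 of 82 hexagons, Six3 in 8, Lhx1 in 6, Zfhx3 in 2 and Vax1 in 2.

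Detection also differed between the genes. Zfhx3 had a count in all 82 hexagons, even in the library with a total of 11905 counts. Six3 and Six6 each had a count in 81 hexagons, missing only from that same library, where a count of 0 allows up to 98.4 CPM. Lhx1 had a count in 72 hexagons and Vax1 in 62. A count of all 5 genes stood in 56 hexagons, of 4 of them in 22, of 3 in 3 and of 1 in 1. In bulk tissue of this kind, fewer cells with a transcript and less of it per cell cannot be told apart.

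Lhx1 varied most of the 4 well-counted genes. Its level over the 82 hexagons ran from 0 to 250 CPM with a median of 38.1 CPM, and its mean was 53.7 ± 51.6 CPM (SD), a coefficient of variation of 0.961. The 10 hexagons without Lhx1 were spread over sections 95, 143, 191 and 287. Depth was not low in all of them, since 1 of the 4 in section 143 had a total of 1795742 counts, where a count of 0 allows up to 1.77 CPM. The highest hexagon, at 250 CPM from 261 counts, lay in section 287, near the middle of the medial-lateral range. Zfhx3 varied least, between 77.0 and 436 CPM with a median of 199 CPM and a mean of 215 ± 85.5 CPM, a coefficient of variation of 0.398. Six3 (mean 74.5 ± 38.5 CPM) and Six6 (130.04 ± 77.5 CPM) lay between them, with coefficients of 0.516 and 0.596.

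Vax1 was close to the limit of detection. Its median was 2 counts per hexagon, which carries a counting error of 70.7% of the value, and only 9 hexagons had 10 or more counts. Its level averaged 5.43 ± 6.12 CPM (SD, n = 82) and reached 30.1 CPM in 1 hexagon of section 239, where that value rests on 6 counts. Vax1 therefore did not pass the filter of 10 or more counts in 10 or more libraries. The other 4 genes passed it and were tested among 11469 genes.

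**Figure D1:**
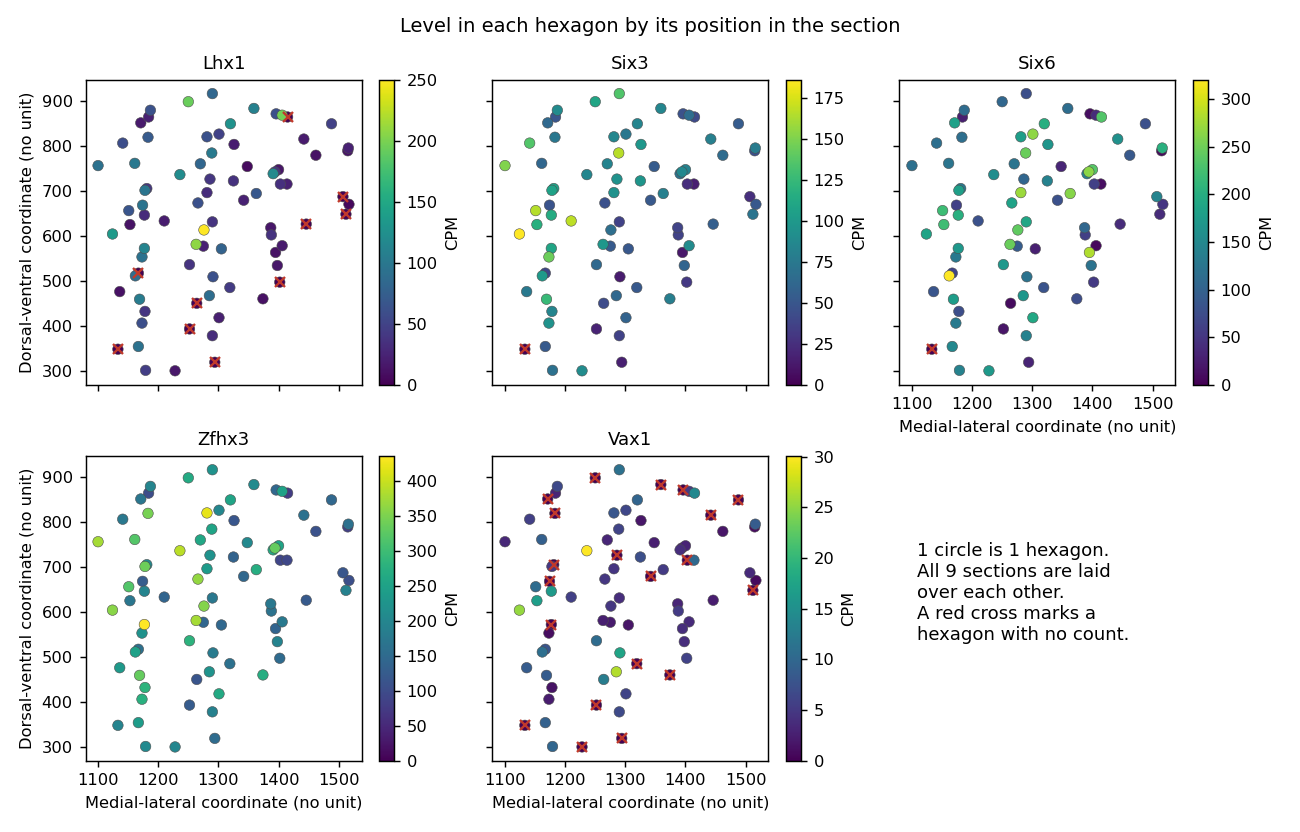
Level of each gene in CPM (colour) in the 82 hexagons by medial-lateral (horizontal) and dorsal-ventral (vertical) coordinate, neither with a unit in the labels, with all 9 sections laid over each other. A red cross marks a hexagon with no count, of which Lhx1 has 10 and Vax1 has 20, while Zfhx3 has none.

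Zfhx3 and Six3 were lower towards high medial-lateral coordinates. Zfhx3 fell by 0.27 on the log2 scale per 100 coordinate units, which is 1.20-fold, and Six3 fell by 0.31, or 1.24-fold. Both passed edgeR's quasi-likelihood test with Benjamini-Hochberg adjustment over all genes, while Lhx1, with the steepest negative slope, missed the threshold. The coordinates span 1100 to 1517, and the test compares hexagons within sections. To show the values, the hexagons were ranked by coordinate and divided into a low, a middle and a high band of 27, 27 and 28. Unlike the test, the bands pool all sections, so they differ in their sections as well as in position. The high band starts at 1342, while section 383 ends at 1326 and section 431 lies at 1210.

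Zfhx3 ran from 101 to 436 CPM (median 220 CPM) in the 27 hexagons of the low medial-lateral band, from 116 to 420 CPM (median 222 CPM) in the 27 of the middle band and from 77.0 to 334 CPM (median 161 CPM) in the 28 of the high band. The ranges overlapped widely, and the high band was lower than the other two, which had like medians. Its slope was -0.27 (SE 0.05, adjusted p = 0.00197), and a line fitted within each section sloped down in 8 of 8 sections. Its adjusted p stayed between 8.5e-04 and 0.0278 when 1 section, or 1 hexagon of section 47, was left out.

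Six3 ran from 0 to 186 CPM (median 94.0 CPM) in the low band, from 14.4 to 166 CPM (median 67.1 CPM) in the middle band and from 11.9 to 88.8 CPM (median 54.7 CPM) in the high band. No hexagon of the high band passed 88.8 CPM, whereas the low band had its median above that value. Sections 383 and 431, the highest in Six3, have no hexagon in the high band. The slope was -0.31 (SE 0.08, adjusted p = 0.0145), and 6 of 8 sections sloped down, the exceptions being sections 95 and 191. The call was lost without section 143 (adjusted p = 0.0564), 239 (0.0625), 287 (0.211) or 335 (0.0532).

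Lhx1 ran from 0 to 135 CPM (median 59.6 CPM) in the low band, from 0 to 250 CPM (median 49.8 CPM) in the middle band and from 0 to 197 CPM (median 17.2 CPM) in the high band. Most hexagons of the high band were low, and a few there were among the highest of all. The slope was -0.56 (SE 0.16, adjusted p = 0.0571), with lines sloping down in 8 of 8 sections. It passed under 6 of the alternatives tried. These were DESeq2 (adjusted p = 0.00317, 3.02% of genes called), edgeR without the filter on low counts (0.0266, 4.26% called), another scaling (RLE, 0.0471, 1.46% called), library size alone (0.0485, 1.61% called), and the fits without section 191 (0.0344) or section 383 (0.0408). It did not pass with the summed pan-neuronal markers as a covariate (0.0922), without the 5 libraries of low depth (0.0756, 1.42% called) or in the others, where the adjusted p lay between 0.0543 and 0.479.

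Six6 ran from 0 to 321 CPM (median 129 CPM), 8.95 to 272 CPM (median 155 CPM) and 7.15 to 282 CPM (median 78.8 CPM) in the low, middle and high band. High hexagons were found in each band. Its slope of -0.21 (SE 0.12, 95% interval -0.44 to 0.01, adjusted p = 0.487) did not pass. Vax1 had medians of 5.65, 4.79 and 2.80 CPM in the 3 bands, and in a fit over 21396 genes without the filter its slope was -0.37 (SE 0.24, adjusted p = 0.466).

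Of the 4 tested genes 2 were thus called lower at high medial-lateral coordinates and none higher, against 0.558% of the 11469 genes called lower and 1.38% called in either direction. The median slope of the 4 was -0.29, against -0.0044 over all genes. A letter from A to H begins the description label, and was taken here, as an inference, for a library set. The letter moves with the coordinate, since 36.0% of the medial-lateral spread within sections follows it. With the letter as a factor the slopes were -0.22 for Zfhx3 (adjusted p = 0.147), -0.30 for Six3 (adjusted p = 0.176) and -0.42 for Lhx1 (adjusted p = 0.479). None of the 4 was then called, and 0.122% of all genes were. The medial-lateral calls of other genes given below come from the fit without the letter, and carry the same limit.

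Markers of other cells were compared along the same axis, on which 1.38% of all genes were called. No tested marker of microglia, endothelial cells, mural cells or oligodendrocyte precursors was called. The 10 oligodendrocyte markers summed to medians of 1379, 891 and 1926 CPM in the low, middle and high band, with ranges of 0 to 8699, 178 to 12545 and 366 to 23821 CPM, and all 10 slopes were positive with none called. The 10 astrocyte markers had medians of 4786, 5058 and 5786 CPM, with ranges of 1673 to 7741, 1265 to 8456 and 2914 to 10749 CPM. None of these 20 markers was at 0 in every hexagon. All 10 astrocyte slopes were positive too, with a median of 0.13 against -0.0044 over all genes. S100b was the 1 astrocyte marker that was called, at 0.27 (SE 0.07, adjusted p = 0.0417). The 6 markers of meningeal fibroblasts summed to medians of 11.3, 2.66 and 8.78 CPM, with highest values of 730, 234 and 64.0 CPM. Of these 3 were tested, and Dcn and Slc6a13 fell, by 1.87 and 2.01 on the log2 scale per 100 units. The part of these cells in the slopes of the 3 factors was not tested. The sum of the 9 pan-neuronal markers, none of them called, had like medians of 6366, 6325 and 6361 CPM, and with that sum as a covariate Zfhx3 and Six3 were called, with 1.52% of all genes.

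**Figure D2:**
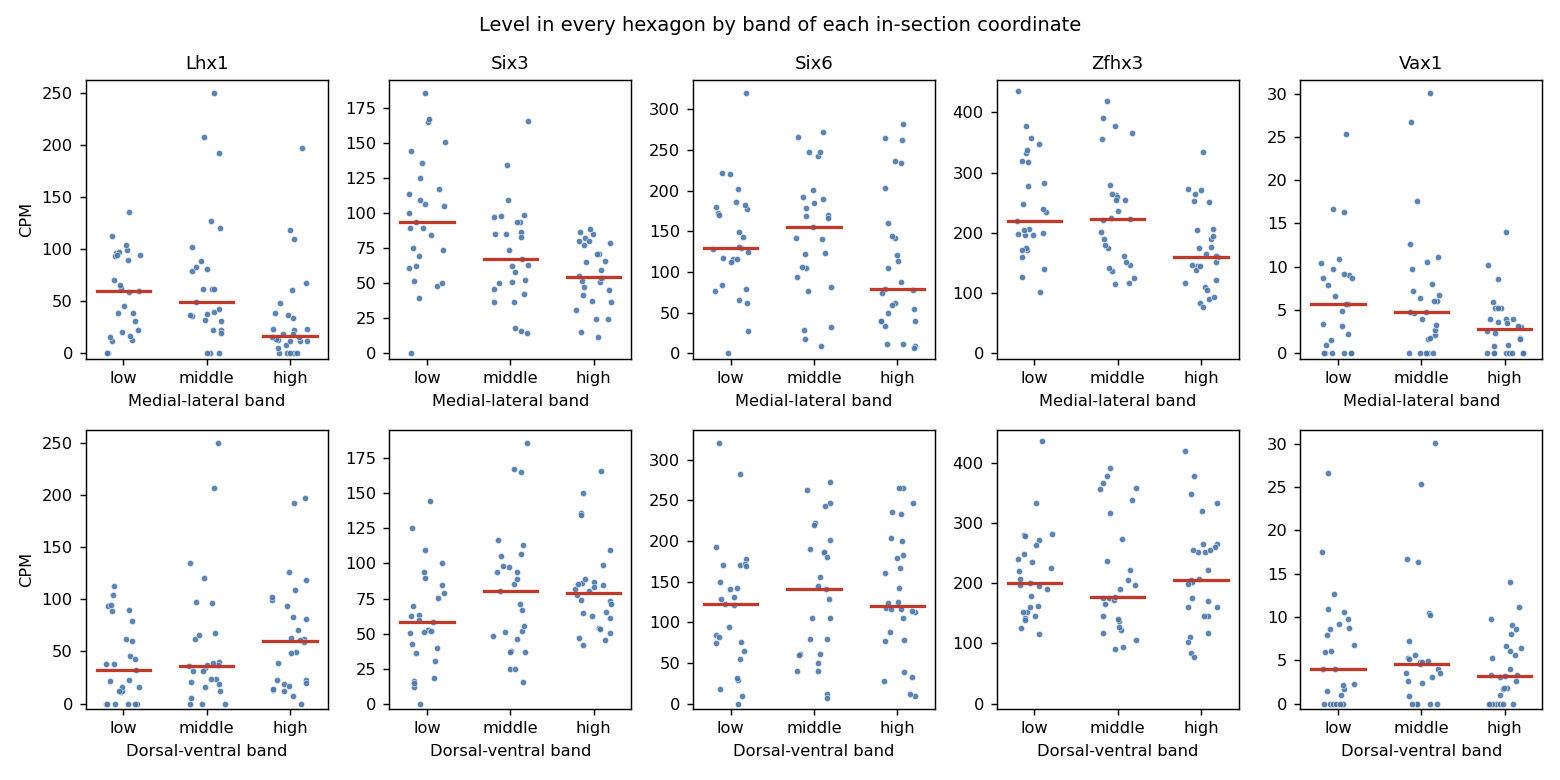
Level in CPM (vertical) of each gene in every hexagon, by low, middle and high band of the medial-lateral (top) and dorsal-ventral (bottom) coordinate. Points are hexagons and red lines are medians, and the medial-lateral medians of Lhx1 are 59.6, 49.8 and 17.2 CPM.

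Along the dorsal-ventral coordinate none of the 4 tested genes was called, while 0.793% of all genes were. Lhx1 and Six3 came closest, both higher at high coordinates, and both had an unadjusted p under 0.05. Zfhx3 had nearly no slope on this axis.

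Lhx1 ran from 0 to 113 CPM (median 32.2 CPM) in the low dorsal-ventral band, from 0 to 250 CPM (median 36.0 CPM) in the middle band and from 0 to 197 CPM (median 60.1 CPM) in the high band. Of the 10 hexagons without Lhx1, 6 were in the low band and 1 was in the high band. The slope was 0.35 (SE 0.10, adjusted p = 0.0829), and 6 of 8 sections sloped up. Six3 ran from 0 to 144 CPM (median 58.3 CPM), 15.3 to 186 CPM (median 80.5 CPM) and 42.0 to 166 CPM (median 78.9 CPM) in the low, middle and high band. Its slope was 0.18 (SE 0.05, adjusted p = 0.0707), with 7 of 8 sections sloping up. Both were called by DESeq2 (adjusted p = 0.00535 for Lhx1 and 0.0129 for Six3, with 1.33% of genes called), by edgeR without the filter on low counts (0.0292 and 0.0305, with 3.73% called) and without section 383 (0.0193 and 0.0315). With another section left out the adjusted p reached 0.604 for Lhx1 (without section 191) and 0.456 for Six3 (without section 287).

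Six6 had medians of 122, 140 and 120 CPM in the 3 dorsal-ventral bands and a slope of 0.11 (95% interval -0.04 to 0.26, adjusted p = 0.816). Zfhx3 had medians of 200, 177 and 206 CPM and a slope of 0.04 (95% interval -0.02 to 0.11, adjusted p = 0.865). For comparison, Vip, the peptide of the light-receiving SCN neurons, rose by 1.54 on the log2 scale per 100 units of the same axis (adjusted p = 1.4e-09).

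**Figure D3:**
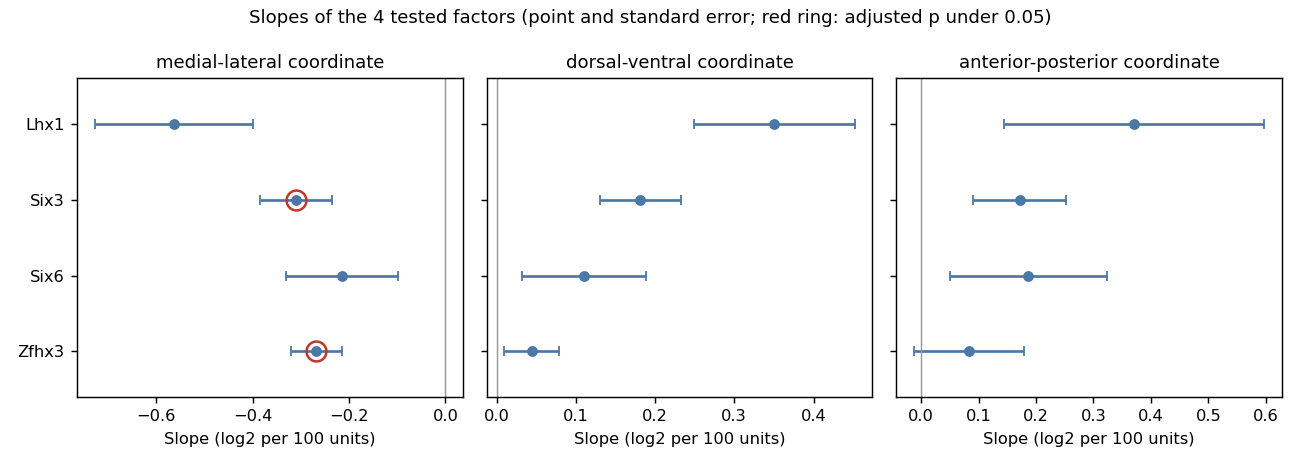
Slope per 100 coordinate units on the log2 scale (horizontal) for the 4 tested genes (vertical) along each axis, with the standard error as a bar. Red rings mark the slopes of Six3 (-0.31) and Zfhx3 (-0.27) along the medial-lateral coordinate, the 2 with an adjusted p under 0.05.

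A test of both coordinates, their squares and their product together finds peaks as well as slopes. Lhx1 (adjusted p = 5.6e-04), Zfhx3 (8.7e-04) and Six3 (0.0184) were called by it, and Six6 (0.279) was not, against 2.03% of all genes called. For Lhx1 the combination was visible in the grid of bands. Its median was 11.8 CPM in the 4 hexagons that were high medial-lateral and low dorsal-ventral, and 81.98 CPM in the 8 that were middle medial-lateral and high dorsal-ventral. The 4 hexagons lay between 0 and 15.9 CPM and the 8 between 19.7 and 193 CPM, without overlap. These places were picked after their values had been seen, and carry no test of their own. Zfhx3 was highest in the centre of the grid, with a median of 296 CPM (8 hexagons, 137 to 391 CPM), and lowest at high medial-lateral and middle dorsal-ventral coordinates, with a median of 145 CPM (11 hexagons, 91.1 to 273 CPM). The letter as a factor left Lhx1 called (adjusted p = 0.00732) and not Zfhx3 (0.0539) or Six3 (0.136), with 1.22% of genes called. Six3 also lost the call without section 143 (0.0872), 239 (0.0942) or 287 (0.435).

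Levels by section gave each gene its own profile along the anterior-posterior axis. Zfhx3 had section medians of 175, 132, 156, 243, 268, 232, 191 and 184 CPM from section 47 to section 383, and the lone hexagon of section 431 had 140 CPM. The 3 sections from 191 to 287 had the highest medians. A test of differences between sections called Zfhx3 (adjusted p = 0.0309), with 4.1% of all genes called. This test counts the hexagons of a section as replicates, though they are not independent sections. Its p-values, here and below, are therefore too small. The order from low to high was 95, 143, 47, 383, 335, 287, 191 and 239, and every pair of neighbours in it overlapped in range.

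Lhx1 had section medians of 29.0, 53.4, 13.5, 29.8, 80.6, 85.1, 45.9 and 41.1 CPM, and 20.4 CPM in section 431. Sections 239 and 287 were the highest, and section 143 was the lowest, with 4 of its 12 hexagons at 0 and none above 49.8 CPM. Section 143 was also among the deepest, with totals of 530478 to 1795742 counts. The test of sections gave Lhx1 an adjusted p of 0.0594. It passed under 8 of the alternatives (adjusted p 0.0156 to 0.0491), such as without the 5 libraries of low depth (0.0288, 5.36% of genes called), and had 0.518 without section 143 and 0.445 with the letter as a factor. Its neighbours in the order 143, 47, 191, 383, 335, 95, 239 and 287 all overlapped in range.

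Six3 had section medians of 52.7, 60.2, 48.0, 68.4, 87.2, 69.2, 69.4 and 96.3 CPM, and the lone hexagon of section 431 had 167 CPM, the second highest Six3 level of all. Six6 had medians of 70.6, 74.7, 99.7, 104, 175, 144, 141 and 129 CPM, with section 239 highest, and 79.2 CPM in section 431. Neither passed the test of sections (adjusted p = 0.896 for Six3 and 0.584 for Six6). Vax1 was seen in 1 of 4 hexagons of section 47 and in 12 of 12 of section 143, with medians between 0 and 5.61 CPM over sections 47 to 383. Its order from low to high was 47, 383, 95, 287, 335, 191, 143 and 239, again with every pair of neighbours overlapping.

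The library letter follows the section closely, with only 4 sections divided between 2 letters. With the letter as a factor Zfhx3 was no longer called between sections (adjusted p = 0.994, with 1.05% of genes called), so set and section cannot be told apart. The Zfhx3 call was also lost without section 143 (0.0592), 191 (0.0814) or 239 (0.137). On sums per section, for the 8 sections with 4 or more hexagons, none of the 4 had a called anterior-posterior slope, while 0.244% of all genes did. The slopes were 0.37 for Lhx1 (SE 0.23, adjusted p = 0.442), 0.17 for Six3 (SE 0.08, adjusted p = 0.304), 0.19 for Six6 (SE 0.14, adjusted p = 0.531) and 0.08 for Zfhx3 (SE 0.10, adjusted p = 0.713). At an unadjusted p under 0.05 there were 0 of the 4 by edgeR and 1, Lhx1, by DESeq2.

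**Figure D4:**
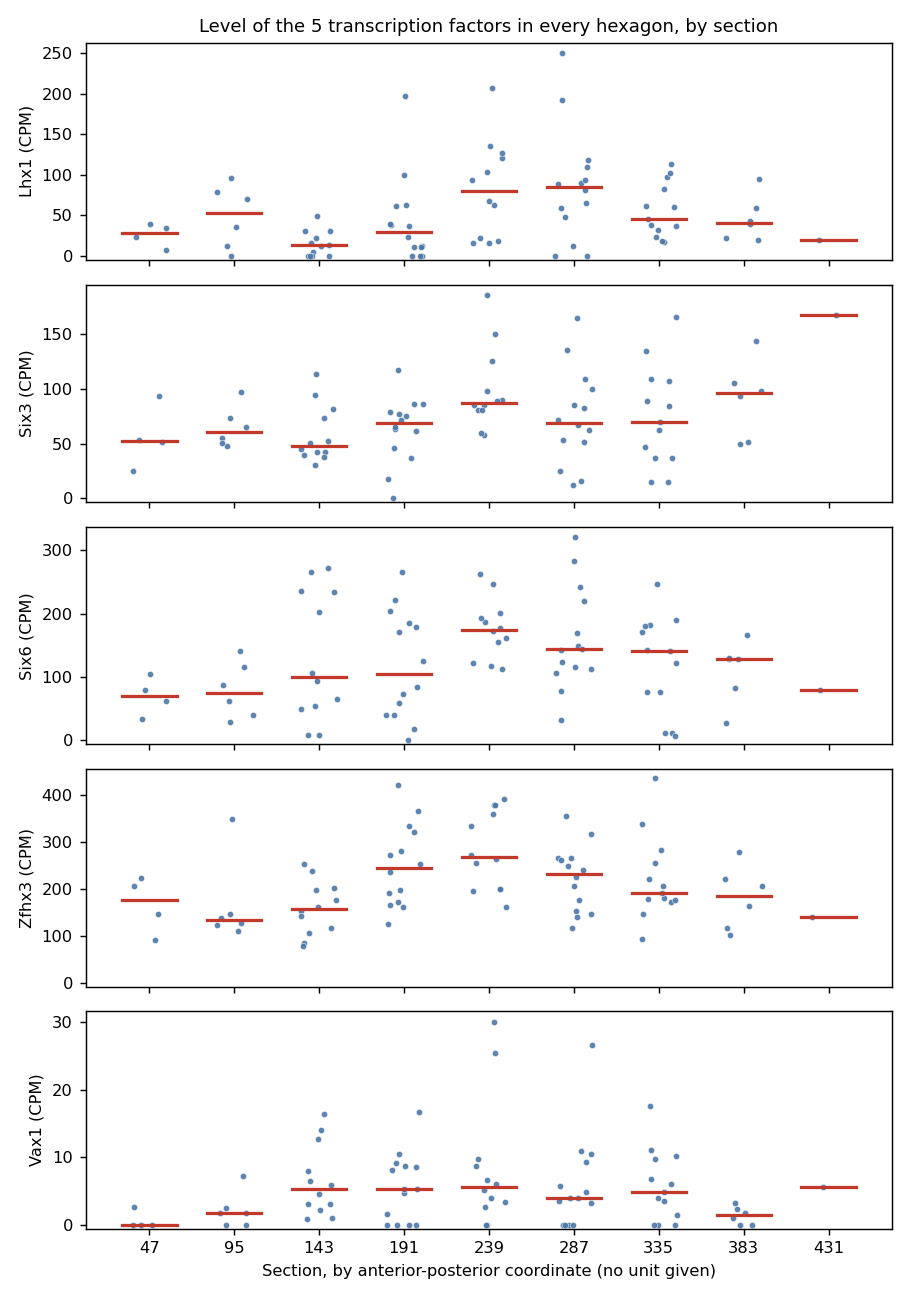
Level in CPM (vertical) of each gene in every hexagon by section, ordered by anterior-posterior coordinate (horizontal). Points are hexagons and red lines are section medians, and Lhx1 has its highest medians in sections 239 and 287 (80.6 and 85.1 CPM).

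Whether a slope within sections changes along the anterior-posterior axis was tested as a product of the coordinates. None of the 4 genes was called, while 0.0174% of all genes were for the dorsal-ventral product. Six6 (-0.31, SE 0.10, unadjusted p = 0.00236, adjusted p = 0.396), Zfhx3 (-0.13, SE 0.04, unadjusted p = 0.00356, adjusted p = 0.413) and Lhx1 (-0.35, SE 0.13, unadjusted p = 0.00896, adjusted p = 0.524) had 3 negative values, and Six3 was near 0 (-0.03). Here a value is the change of the dorsal-ventral slope per 100 anterior-posterior units. Lines fitted in each section show the numbers behind it. Six6 sloped up by 0.81, 0.87 and 0.80 in sections 95, 143 and 191, and had slopes of -0.06, 0.02, 0.04 and -0.22 in sections 239, 287, 335 and 383. Section 47, with 4 hexagons, had a Six6 slope of -1.49. For the medial-lateral product none of the 4 had an unadjusted p under 0.05 in edgeR.

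The factors varied together across hexagons to different degrees. Correlations were taken over the 82 hexagons on log2(CPM + 1), with section means and the log2 total count regressed out. They are descriptions, and the points share libraries, sections and depth. The highest was between Lhx1 and Zfhx3 (r = 0.56), followed by Six3 and Six6 (0.51), Six3 and Zfhx3 (0.46), Lhx1 and Six3 (0.44), Six6 and Zfhx3 (0.41) and Lhx1 and Six6 (0.36). Vax1 lay between 0.08 and 0.22 with the others, where its low counts limit any correlation. The number of genes detected was also tried in place of the log2 total count. Six3 and Six6 then had an r of 0.30, and Lhx1 and Zfhx3 one of 0.52. Without the 5 libraries of low depth these were 0.33 and 0.57.

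Six3 and Six6, the sine oculis members, did not keep a fixed ratio. In the 74 hexagons with 10 or more counts of both, Six6 was higher per length in 65 and Six3 in 9, with a median ratio of 2.23 in favour of Six6 and a range from 0.109 to 11.5. Both extremes were in section 335. Hexagon 9 of that section had 195 counts of Six6 and 23 of Six3, and hexagon 13 had 12 counts of Six6 and 149 of Six3. These libraries had 1731263 and 1800916 counts in all. In hexagon 12 of section 287, Six6 had 71 counts (282 CPM, the second highest level of Six6) beside 3 counts of Six3. Summed over a section, the ratio per length was 1.64 and 1.60 in sections 47 and 95, between 2.57 and 3.11 in sections 143 to 287, 1.95 in section 335 and 1.46 in section 383. It was 0.643 in the lone hexagon of section 431.

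The gene most like Lhx1 across hexagons was Lhx1os (r = 0.67), a non-coding RNA that starts just upstream of Lhx1 and runs the other way, at chr11:84525660-84535831, with no exon in common with it. Both had a count in 70 hexagons and neither in 7, Lhx1 alone had one in 2 and Lhx1os alone in 3. Lhx1os had section medians of 31.7, 28.4, 16.7, 15.8, 86.9, 121, 69.4 and 61.6 CPM from section 47 to section 383, highest in sections 239 and 287, as Lhx1 was. This RNA was called by the test of sections (adjusted p = 2.3e-04, too small for the reason given above) and by the 5-term test within sections (adjusted p = 0.0165). Its slopes, -0.41 medial-lateral (adjusted p = 0.134) and 0.30 dorsal-ventral (adjusted p = 0.119), did not pass. The next 3 genes by likeness to Lhx1 were Spon1 (0.65), a secreted matrix protein, Klhl13 (0.60), an adaptor of a ubiquitin ligase, and Ppp1r1a (0.59), an inhibitor of protein phosphatase 1. Ppp1r1a rose by 0.47 along the dorsal-ventral coordinate (adjusted p = 3.7e-07) and fell by 0.47 along the medial-lateral one (adjusted p = 0.00382). Klhl13 rose by 0.25 along the dorsal-ventral coordinate (adjusted p = 0.00857).

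**Figure D5:**
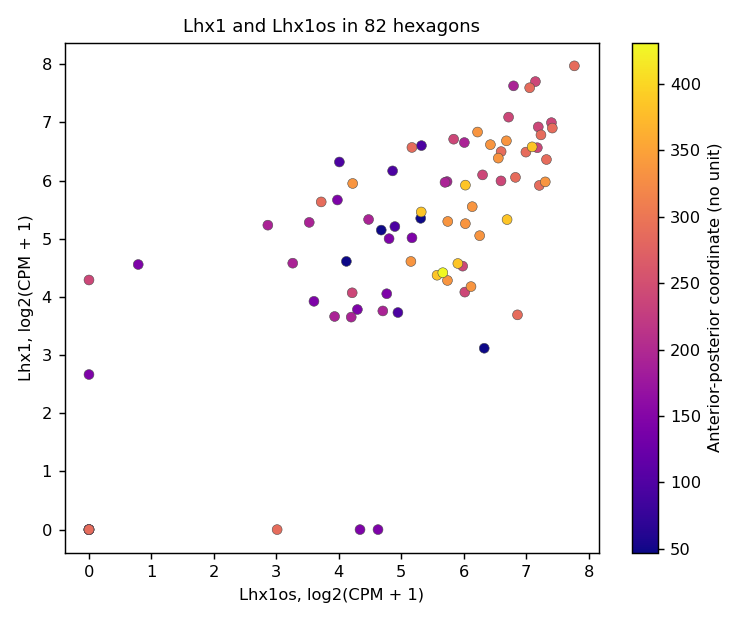
Lhx1 (vertical) against Lhx1os (horizontal), both as log2(CPM + 1), in 82 hexagons coloured by anterior-posterior coordinate. Both RNAs have a count in 70 hexagons, and the 7 hexagons with neither sit at the origin.

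Six3 was most like Zfp462 (r = 0.76), a zinc finger protein, Huwe1 (0.74), a very large ubiquitin ligase, Map1b (0.73), a microtubule protein, and Hipk2 (0.71), a kinase that binds homeodomain proteins. Zfp462 fell by 0.28 along the medial-lateral coordinate (adjusted p = 0.0448) and Map1b fell by 0.12 (adjusted p = 0.0471). Hipk2 rose by 0.20 along the dorsal-ventral coordinate (adjusted p = 0.00109). Six6 was most like Pgrmc1 (0.78), a haem-binding membrane protein, Dner (0.74), a Notch ligand of neurons, Syt10 (0.72), a synaptotagmin enriched in the SCN, and Epha5 (0.72), an ephrin receptor, and none of them was called on either axis. Zfhx3 was most like Malat1 (0.63), a nuclear long non-coding RNA, Ksr2 (0.60), a kinase scaffold, Flrt3 (0.59), an adhesion protein, and Prok2 (0.58), a peptide that carries the SCN's output. Malat1 fell by 0.21 (adjusted p = 0.0134) and Flrt3 fell by 0.37 (adjusted p = 0.00382) along the medial-lateral coordinate. For Vax1 the 4 highest were Plgrkt (0.48), Tubgcp4 (0.45), Rnf139 (0.41) and Slc12a9 (0.41). The genes compared numbered 8170, or 8171 for Vax1, and their median r was 0.02 for Lhx1, 0.21 for Six3, 0.20 for Six6, 0.03 for Zfhx3 and 0.03 for Vax1. The genes most like each factor, those of Lhx1 included, were ranked over all 82 hexagons alone. Whether the rankings hold without the 5 libraries of low depth, or with the genes detected regressed out, was not tested. Without those libraries the r of Six3 and Six6 went from 0.51 to 0.33.

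Correlations with the SCN peptides are likewise a description without a test. Lhx1 had an r of 0.51 with Vip and 0.45 with Grp, the peptides of the light-receiving neurons, and of -0.10 with Avp, the peptide of the shell neurons. Six6 had 0.22 with Vip, 0.16 with Grp and 0.52 with Avp. It was also high with Prok2 (0.66) and Nms (0.64), a peptide of many SCN pacemaker neurons. Six3 had 0.37 with Vip, 0.32 with Avp and 0.52 with Nms. Zfhx3 had 0.38 with Vip, 0.11 with Avp and 0.51 with Nms, and -0.40 with Mbp, a protein of myelin. Next, the number of genes detected was regressed out in place of the log2 total count. The r with Avp was then -0.25 for Lhx1, 0.06 for Six3, 0.33 for Six6 and -0.04 for Zfhx3. That of Six3 with Nms was 0.34. Without the 5 libraries of low depth, Avp had -0.15 with Lhx1, 0.12 with Six3, 0.44 with Six6 and 0.15 with Zfhx3, Vip had 0.12 with Six6, and Nms had 0.38 with Six3. Gad2, which makes GABA in nearly all SCN neurons, had an r of -0.51 with Six6 and of -0.43 with Zfhx3.

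Close relatives of the 5 genes were mostly at or near 0 counts. Of 18 genes of the same families, 2 passed the filter, Zfhx2 (96.1 ± 44.4 CPM) and Zfhx4 (155 ± 80.3 CPM, SD, n = 82), the relatives of Zfhx3. Per length, Zfhx3 averaged 10.3 RPKM, against 9.75 RPKM for Zfhx4 and 5.19 RPKM for Zfhx2. Zfhx2 fell by 0.28 along the medial-lateral coordinate (SE 0.08, adjusted p = 0.0338), and Zfhx4 had a slope of -0.03 (SE 0.08, adjusted p = 0.944). Along the anterior-posterior axis Zfhx4 had a slope of -0.32 (SE 0.07, adjusted p = 0.0555). Lmx1a and Isl2 had no count in any hexagon, and Vax2, the partner of Vax1 in the eye, had a count in 1 hexagon. Lhx2, a factor of the cortex and the eye, averaged 4.58 CPM, most of which was 1 hexagon at 262 CPM, from 8 counts in the library of 11905 counts. Isl1 was seen in 14 hexagons, up to 58.9 CPM.

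Partners of these factors were mostly present. Of 23 genes for proteins that bind LIM or sine oculis factors, 17 were tested and none was called on any of the 3 axes, by the 5-term test or between sections. Over all genes 1.38% were called medial-lateral, 0.793% dorsal-ventral, 0.244% anterior-posterior, 2.03% by the 5-term test and 4.1% between sections. No call among 17 genes is close to these shares. Rlim, a ubiquitin ligase that removes LIM cofactors, averaged 265 ± 74.5 CPM, and Tle4, of a corepressor family that sine oculis factors use, 243 ± 115 CPM. Ldb1, the cofactor that binds LIM domains, averaged 31.6 ± 17.2 CPM (SD, n = 82 in each case). Eya3, of a coactivator family of sine oculis factors, averaged 34.4 ± 21.3 CPM and was the 1 Eya gene of 4 that passed the filter. The median medial-lateral slope of the 17 was -0.04, against -0.0044 over all genes.

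Of 46 other transcription factors of the forebrain and hypothalamus, 30 were tested. On the medial-lateral axis 1 fell and none rose, against 1.38% of all genes called in either direction. It was Rorb, a nuclear receptor of the SCN and retina, at -0.25 (SE 0.06, adjusted p = 0.0119). On the dorsal-ventral axis 2 fell, where 0.793% of all genes were called in either direction. Dlx1, a factor of GABAergic neurons, fell by 0.50 (SE 0.11, adjusted p = 0.00783) and Mef2c, a factor of activity-driven transcription, fell by 0.34 (SE 0.08, adjusted p = 0.00986). None was called on the anterior-posterior axis, where 0.244% of all genes were. Genes called by the 5-term test included Nr2f2, Rorb and Mef2c, and the test of sections called Zic1, Mef2c and Zic2. Over all genes 2.03% and 4.1% were called by these tests. The section calls come from the fit without the letter, and with the letter 1.05% of all genes were called. Nkx2-1, a factor of the developing hypothalamus, had no count in any of the 82 hexagons, nor had Otx2 or Nkx2-4.

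Of 21 SCN peptides, receptors and signalling genes, 19 were tested. Along the medial-lateral coordinate Calcr, the calcitonin receptor, fell by 0.97 (SE 0.21, adjusted p = 0.00469). Rgs16, which limits G-protein signals, fell by 0.39 (SE 0.10, adjusted p = 0.0169). This was the direction in which Zfhx3 and Six3 were called, and the median slope of the 19 was -0.26. On this axis 1.38% of all genes were called. With the letter as a factor 0.122% were, and neither Zfhx3 nor Six3 was among them. Along the dorsal-ventral coordinate Vip rose and Penk, an opioid peptide precursor, fell by 0.43 (SE 0.10, adjusted p = 0.0101). The test of sections called 1 of the 4 tested SCN factors and 10 of these 19 genes, and the 5-term test called 3 of the 4 and 7 of the 19, against 4.1% and 2.03% of all genes. The 1 factor called between sections, Zfhx3, was not called with the letter as a factor, as given above.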

How the data were processed

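The 82 libraries were analysed from the deposited table of whole-number counts, made by the authors, for 27515 genes, and from the deposited RPKM table for 27055 of them. The RPKM values equal the authors' counts divided by gene length and library total, to within a relative deviation of 5.3e-15, so they served only to compare levels between genes. Per the submitters' processing notes, bcl2fastq 2 and STAR were among the tools and GRCm38 was the build. How reads were counted, on which strand and against which annotation is not given in the sources used here.

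Totals ran from 11905 to 2843366 counts per library, and counting error at the median count was 9.28% for Zfhx3, 12.5% for Six6, 15.8% for Six3 and 19.8% for Lhx1. Testing needed at least 10 counts in at least 10 libraries, which 11469 genes met and Vax1 did not. Counts were fitted with edgeR 4.0.16 in R 4.3.3 (quasi-likelihood, TMM scaling, robust) on all hexagons, and the model held a section factor plus the medial-lateral and dorsal-ventral coordinate. Slopes are log2 changes over 100 units of a coordinate, and an SE is the absolute slope divided by the root of its F. The 95% intervals are the slope plus and minus its SE times the normal quantile. The lone hexagon of section 431 has no weight in slopes within sections. The anterior-posterior slope used sums per section. Adjusted p-values are Benjamini-Hochberg values over all genes tested, called under 0.05. CPM uses TMM library sizes, and a count of 0 was given the limit of 3 counts, which covers counting error only. Tested on simulated data over 11469 genes, the fits recovered 100% of 100 dorsal-ventral slopes of 0.5, 75% of medial-lateral and 49% of anterior-posterior ones. The altered genes were drawn from the better-counted ones, and all genes of a simulation had the same spread. The simulated data held no effect of section, animal or letter, so recovery in the real data can be lower. Recovery of slopes under 0.5 was not tested. The slopes of the tested SCN factors along the axes were all smaller than 0.5, except the medial-lateral slope of Lhx1. DESeq2 1.42.0, other scalings, no filter, leaving out low-depth libraries, single sections or hexagons, the library letter and the pan-neuronal sum were tried as alternatives.

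The members, gene lists and tests were chosen with earlier results of these data known. Named beside the members are, for each, the 4 genes of mean CPM 20 or more with the highest r, the called genes of each list (at most 4 per list and axis) and relatives of mean CPM 20 or more. Other genes named from the lists, and single hexagons and places, were chosen after their values were seen. Start regions came from RefSeq (GRCm38.p6), which has all 5 genes. Of the other transcription factors, 1 is not reported here.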

Additional observations from a re-analysis of the deposited data

Results flagged for a closer look

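In 3 of 15 groups of hexagons checked (5 genes in the 3 sections with 4 to 10 hexagons), the highest hexagon stood apart from the rest of its section by Dixon's test at the 95% level. Chance marks about 1 in 20 such groups. Zfhx3 had 348 CPM in hexagon 3 of section 95, where the other 5 hexagons lay between 111 and 146 CPM. Vax1 had 2.56 CPM, from 1 count, in hexagon 2 of section 47, where the other 3 had none, so that any count there would have been marked. Vax1 had 7.20 CPM, from 2 counts, in hexagon 5 of section 95, where the next highest had 2.41 CPM.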

How the results depend on the processing

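The medial-lateral, dorsal-ventral and anterior-posterior slopes of the 4 tested genes kept their sign under every alternative run. For the dorsal-ventral slope, Lhx1 passed with no filter (0.35) and in DESeq2 (0.38), and Six3 with no filter (0.18), the pan-neuronal sum as a covariate (0.20) and in DESeq2 (0.19), so 2, 1 and 2 genes were called. Leaving out 1 section, or 1 hexagon of section 47, gave slopes of 0.25 to 0.41 for Lhx1 and 0.15 to 0.22 for Six3, with 0 to 2 genes called. For the medial-lateral slope, Lhx1 passed under RLE scaling (-0.58), library size alone (-0.57), no filter (-0.56) and DESeq2 (-0.59). With the library letter as a factor, Six3 (-0.30) and Zfhx3 (-0.22) did not pass and 0 genes were called. Left-out sections gave -0.66 to -0.51 for Lhx1 and -0.39 to -0.23 for Six3, with 1 to 3 called.

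In the 5-term test the letter as a factor gave adjusted p-values of 0.136 for Six3 and 0.0539 for Zfhx3, with 1 gene called, and left-out sections gave 0.00968 to 0.435 for Six3, with 2 to 3 called. Between sections, Lhx1 passed under RLE scaling (adjusted p = 0.0491), library size alone (0.0484), no filter (0.0156), without low-depth libraries (0.0288) and with the pan-neuronal sum (0.0416), which made 2 genes called, and Zfhx3 lost its call with the letter (0.994), which left 0. Left-out sections gave 0.0312 to 0.518 for Lhx1 and 0.0170 to 0.137 for Zfhx3, with 0 to 2 called. Sign changes were seen in uncalled products with the anterior-posterior coordinate alone. They were Six3 dorsal-ventral with the pan-neuronal sum (0.0174, and -0.0630 to 0.00619 over left-out sections), and, for the medial-lateral product, Six6 without low-depth libraries (0.0132), Six6 with the letter (0.0652, and -0.104 to 0.187 over left-out sections) and Zfhx3 with the letter (0.0384, and -0.0472 to 0.0263 over left-out sections). The cause of these moves was not tested. Without the filter 21396 genes were adjusted over. No paired analysis was possible because the labels give hexagons no replicate number, and the numbers used here only name hexagons. Depth limits Vax1 most, at a median of 2 counts.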
